A study of Mus musculus with 26 samples.

Results

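Corticothalamic projection neurons (CThPN) were examined in single nuclei of the E15.5 mouse cortex, with and without a maternal immune response and in embryos with and without microglia. A nucleus was taken as a CThPN when it held at least 1 unique molecular identifier (UMI, the tag that marks 1 captured RNA molecule) of Hs3st4 or Htr1f, at least 3 UMIs in all of Hs3st4, Htr1f, Zfpm2, Tle4 and Hs3st3b1, no UMI of the interneuron genes Gad1 and Gad2, and none of the intermediate progenitor gene Eomes. This rule found 3435 CThPN among the 43456 nuclei that had at least 500 UMIs and 200 genes. Because the rule reads these genes in the same nuclei, their levels in CThPN, and differences in level between CThPN and other nuclei, are given below as descriptions, with no test between CThPN and other nuclei. Only the MIA response of CThPN was tested against that of other nuclei. Rule genes were part of the fits over all genes and of a screen for libraries far from the others, and nothing is concluded from them there.

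The nuclei came from prospective primary somatosensory cortex of male embryos on a C57Bl/6N background. At E12.5 dams were injected intraperitoneally with saline or with poly(I:C), which mimics viral RNA and is used to bring about maternal immune activation (MIA), and cortex was taken at E15.5. Embryos were wild type (WT) or Csf1r-/-, a germline null (Csf1r-null here) that lacks the receptor on which microglia depend for survival, so the deletion is not limited to microglia. Each of the 4 groups, WT saline, WT MIA, Csf1r-null saline and Csf1r-null MIA, had 2 libraries, named here by group and replicate number, and the sources used here do not tie a library to its dam. The study took its embryos from 4 pregnant dams in all, with WT littermates as controls. Libraries can thus share a litter, while the tests below take no account of litter, and n counts libraries, not dams. Where 8 values are listed in a row, they stand in that order of groups, replicate 1 before replicate 2.

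CThPN are deep-layer excitatory neurons, mostly of layer 6, that send their axons out of the cortex through the internal capsule to the thalamus. They are born early in neurogenesis, next to the subplate neurons, whose axons pioneer the same path, and the regulators of transcription Tbr1, Sox5 and Tle4 are known to set them apart from the subcerebral neurons of layer 5, which depend on Fezf2 and Bcl11b, and from the callosal neurons of the upper layers. Hs3st4 and Hs3st3b1 encode enzymes that add 3-O-sulfate groups to heparan sulfate, a sugar chain that binds guidance cues and growth factors. Htr1f encodes a serotonin receptor, Tle4 a co-repressor of transcription and Zfpm2 a cofactor of GATA factors.

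Summed over its nuclei, a library had from 9897721 to 17605575 UMIs, of which CThPN gave 858502 to 3112739. CThPN were deep nuclei, with a median of 2412 to 4118 UMIs per library beside 1469 to 2954 over all nuclei, so shares below were also computed after each nucleus was thinned to 1000 UMIs. Pairs of libraries shared 0 to 14 nuclear barcodes. A pair of libraries went against their labels by 6 microglial genes (C1qa, C1qb, C1qc, Cx3cr1, P2ry12, Tyrobp), which gave 5 UMIs over all nuclei of WT MIA 2, where the other WT libraries had 122 to 268, and 104 in Csf1r-null saline 2, where the other Csf1r-null libraries had 2 to 5. The tests of shares and expression and the counts over gene lists were therefore repeated without both libraries. The replicate number also stood for the software version, since replicate 1 libraries were counted with another Cell Ranger version than replicate 2 libraries, and it separated the CThPN sums along the first principal component, which held 40.0% of their variance. WT saline 1 stood apart by its interneurons, with 393 nuclei of at least 3 UMIs of Gad1 and Gad2 where the other libraries had 36 to 123.

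The genes of the rule were found in CThPN of every library. Hs3st4 (chromosome 7, 123982869 to 124398989, GRCm38) had 349, 357, 380.4, 397, 390.0, 447, 377 and 445 CPM, that is UMIs per 1000000 UMIs of the CThPN of a library, and both WT saline libraries were the lowest. Tle4 (chromosome 19, 14448150 to 14598051) had 2393, 2222, 2049, 2560, 2211, 2252, 2153 and 2162 CPM. Zfpm2 (chromosome 15, 40655035 to 41104592) lay between 325 and 392 CPM. MIA and saline libraries overlapped for Zfpm2 in both genotypes and for Tle4 in WT, while in Csf1r-null both saline libraries had more Tle4 than both MIA libraries. How many of all genes part 2 libraries from 2 in this way was not counted. Htr1f (chromosome 16, 64924729 to 65105854) was the most variable, at 115, 129.9, 75.5, 176, 135, 184, 97.9 and 186 CPM, and was higher in replicate 2 than in replicate 1 of each group. Hs3st3b1 (chromosome 11, 63885792 to 63922290) had 127, 119, 162, 98.9, 149, 176, 164 and 167 CPM, and WT MIA 2 was the lowest.

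Tle4 supplied most of the evidence behind the rule. Its UMIs made up 65.5% to 71.3% of the summed UMIs of the 5 genes in CThPN, while Hs3st4 or Htr1f was required only once. Between 63.3% and 76.5% of the CThPN of a library held Hs3st4 without Htr1f, 9.36% to 21.3% held Htr1f without Hs3st4, and 13.2% to 20.3% held both. A nucleus with neither gene was no member, whatever its Tle4. In droplets of 1 to 50 UMIs, which hold mostly free RNA, Hs3st4 had 56.6 to 75.5 CPM in the replicate 1 libraries, about as much as over all their nuclei (39.3 to 75.7 CPM). In nuclei thinned to 1000 UMIs, Hs3st4 was found in 1 of 173 interneuron nuclei (0.578%) and 18 of 3387 progenitor nuclei (0.531%), the classes that should lack it, and in 77.5% of CThPN, where the rule asks for it or for Htr1f. At the full depth at which CThPN were chosen, it was found in 28 of 890 interneuron nuclei (3.15%, and 0.0% to 5.13% by library) and 74 of 6183 progenitor nuclei (1.2%). Nuclei that met the CThPN rule were kept out of the progenitor class, so its shares of Hs3st4 are low in part by definition.

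At the threshold, 268 CThPN had exactly 3 UMIs of the 5 genes and 274 nuclei outside had exactly 2. Tbr1 had 289.7 CPM just inside and 279 just outside, Foxp2 had 199 and 164, Sox5 1778 and 1662, and Rprm 371 and 222. The 1864 CThPN with 10 or more UMIs had 483 CPM of Tbr1, 346.5 of Foxp2 and 444 of Rprm. Rprm thus differed more across the threshold than above it, and Tbr1 and Foxp2 differed more above it.

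The label was checked against genes that the rule did not read. For this check and those below, CThPN were set beside 2 classes of nuclei with no UMI of Hs3st4 or Htr1f, found by other genes. The 5210 subcerebral-rule nuclei were picked by Bcl11b, Ldb2, Fezf2, Crim1 and Pex5l, and the 14744 callosal-rule nuclei by a list of callosal genes that includes Cux2, Ptn, Inhba and Plxnd1. For shares after thinning, the rules were applied anew to the thinned counts and gave 2515 and 8294 nuclei. A CThPN that lost its UMIs of Hs3st4 and Htr1f in thinning could thus enter these classes, and how many did was not counted. Tle4 was found in 39.2% and Zfpm2 in 9.98% of the thinned subcerebral-rule nuclei. Ptn was found in 95.8% of the callosal-rule nuclei after thinning, but also in 80.5% of nuclei picked as progenitors by Sox2, Pax6 and Hes5, so the callosal rule also took up progenitors.

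Tbr1, the transcription factor that layer 6 identity depends on, was found in 37.0% of the 1189 CThPN that met the rule after thinning, in 22.7% of subcerebral-rule nuclei and in 9.21% of callosal-rule nuclei. Foxp2, a forkhead factor of layer 6, was found in 26.6%, 14.7% and 6.38% of the same classes. Rprm, a cell cycle inhibitor used as a deep-layer marker, was found in 33.7%, 21.0% and 5.28%. Nxph3, a secreted ligand of neurexins made in layer 6 and the subplate, was found in 16.6% of CThPN and 0.591% of callosal-rule nuclei, and Lmo3 in 24.1% and 3.63%. Sox5 did not separate CThPN from subcerebral-rule nuclei, at 73.9% and 75.1%, but it did from callosal-rule nuclei, at 23.5%. The genes the subcerebral rule read were present in CThPN as well, with Bcl11b in 47.2% and Fezf2 in 18.5% of them, against 90.7% and 65.6% of the nuclei that this rule chose. Cux2, a factor of upper-layer neurons, was found in 0.757% of CThPN.

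Some genes of mature layer 6 and the subplate were found in few CThPN. Crym was found in 6 of 1189 CThPN (0.505%), Ntsr1, a receptor used to label adult corticothalamic neurons, in 49 (4.12%), and Cplx3 and Moxd1 in 0, which allows up to 0.252% of nuclei with a UMI at this depth in counting error alone. Before thinning, each of this pair had 1 UMI over all CThPN, in WT MIA 1. Nr4a2, a nuclear receptor of the subplate and of deep layer 6, was found in 67 (5.63%). Of the layer 6 genes that the rule did not use, Tbr1, Foxp2, Rprm, Nxph3 and Lmo3 were thus more frequent in CThPN than in both other classes. Sox5, Syt6 (3.87% and 4.41%), Sla (10.3% and 11.1%) and Foxp1 (12.3% and 30.8%) were not more frequent in CThPN than in subcerebral-rule nuclei.

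**Figure D1:**
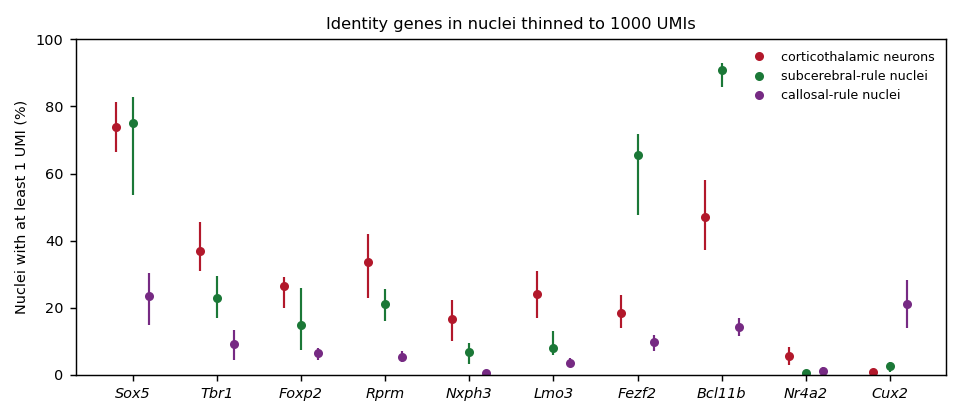
Share of nuclei with at least 1 UMI of each of 10 genes, in percent, after every nucleus was thinned to 1000 UMIs. Points give all nuclei of a class and bars run from the lowest to the highest of the 8 libraries. Among corticothalamic, subcerebral-rule and callosal-rule nuclei, the classes drawn, Tbr1, Foxp2, Rprm, Nxph3 and Lmo3 stand highest in corticothalamic neurons. Fezf2 and Bcl11b stand highest in subcerebral-rule nuclei and Cux2 in callosal-rule nuclei, and the subcerebral and callosal classes were chosen by some of these genes.

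CThPN differed among themselves in which of these genes they held together for some pairs of genes, as counts over thinned nuclei that share 8 libraries. The pairs given here are part of a larger set that was counted, in which others hardly differed. Tbr1, for example, was found in 37.1% of CThPN with Bcl11b and in 36.9% of those without. Rorb, a nuclear receptor best known from layer 4, was found in 11 of the 67 CThPN with Nr4a2 (16.4%) and in 42.5% of those without, lower in 7 libraries. Fezf2 was found in 3 of these 67 (4.48%) and in 19.3% of the CThPN without Nr4a2, though its share was higher with Nr4a2 in 2 libraries. The 316 CThPN with Foxp2 held Sox5 in 80.7%, against 71.5% of those without, higher in 8 of 8 libraries. The 366 CThPN with Htr1f held Fezf2 in 12.6%, against 21.1% of those without, and the share was lower in 7 of 8 libraries. Since the rule asks for Hs3st4 or Htr1f, all CThPN without Htr1f held Hs3st4, so this split is partly made by the rule.

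Set beside subcerebral-rule nuclei, CThPN had more of Nr4a2, Kitl, Cdh10, Rasl11b and Drd1 and less of Itpr1, Pou3f2 and Nrp1 in all 8 libraries. Among genes of at least 50 CPM in either class, 642 of 4180 (15.4%) were higher and 487 (11.7%) lower in CThPN in every library, and the median log2 ratio was 0.01. Nr4a2 had the largest ratio among genes outside the rules, with a mean of 53.8 CPM (40.1 to 71.3) in CThPN and 5.61 CPM in subcerebral-rule nuclei, a median log2 ratio of 3.19. Kitl, the ligand of the receptor Kit, had 190.5 and 25.9 CPM (log2 ratio 2.85, lowest 2.28). Cdh10, a cadherin, had 268 and 45.2 CPM (2.56, lowest 2.13). Rasl11b (2.25) came next. Drd1, the D1 dopamine receptor, had 77.0 CPM in CThPN, between 68.0 and 86.0 in every library, and 18.2 in subcerebral-rule nuclei (2.19). Drd1 was held by 18.2% to 23.7% of the CThPN of a library, and no nucleus gave more than 6 of its UMIs, so its level came from many CThPN. Kcnip4, a potassium channel interacting protein (2.17), and Nebl (2.11) followed.

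The genes lower in CThPN than in subcerebral-rule nuclei were led by Itpr1, the IP3 receptor that releases calcium, with 24.2 and 107 CPM (log2 ratio -2.17). Pou3f2 and Pou3f3, POU factors known from upper layers, had ratios of -1.95 and -1.67. Nrp1, a receptor for class 3 semaphorins, had 25.1 and 97.4 CPM (-1.90), and the cell adhesion gene Ntm had 346.5 and 1193 CPM (-1.69). All were lower in 8 of 8 libraries.

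**Figure D2:**
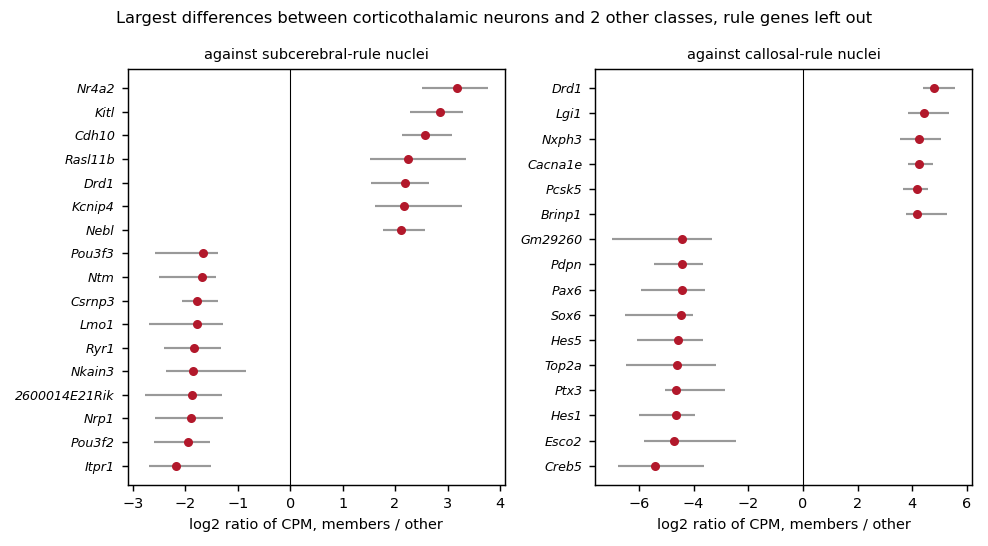
Log2 ratio of CPM between corticothalamic neurons and subcerebral-rule nuclei (left) or callosal-rule nuclei (right) for the genes with the largest ratios of 1 sign in all 8 libraries, genes of either rule left out. Points are medians over the 8 libraries and bars run from the lowest to the highest library; Nr4a2 leads on the left at 3.19 and Drd1 on the right at 4.81, while Itpr1 (-2.17) and Creb5 (-5.43) are the lowest.

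More genes differed from the callosal-rule nuclei, which also hold progenitors. Of 4640 genes, 1073 (23.1%) were higher and 1688 (36.4%) lower in CThPN in every library, with a median log2 ratio of -0.11. Drd1 had 1.71 CPM in callosal-rule nuclei against 77.0 in CThPN (log2 ratio 4.81). Lgi1, a secreted synaptic protein (4.42), Nxph3 (4.25), the calcium channel gene Cacna1e (4.24), Pcsk5, a proprotein convertase (4.18), and Brinp1 (4.18) were the others with the highest ratios.

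The genes lower in CThPN than in callosal-rule nuclei were led by Creb5 (log2 ratio -5.43) and included Hes1 (-4.65) and Pax6 (-4.42), which are progenitor genes. Nrp1 had 25.1 against 415 CPM (-4.01), and Plxna4, a semaphorin coreceptor, 19.6 against 249.9 (-3.68). Unc5d, a netrin and FLRT receptor of migrating upper-layer neurons, had 9.82 against 169 CPM (-3.84), Sema3c 7.48 against 109.9 (-3.93) and Pou3f1 11.5 against 157 (-3.78).

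The lists below are counted over genes of at least 50 CPM in either class that neither rule read, as in the shares over all genes above. Of 12 such corticothalamic genes, 8 were higher and 1 lower in CThPN than in subcerebral-rule nuclei in all 8 libraries (median log2 ratio 0.54), beside 15.4% and 11.7% of all genes. Against callosal-rule nuclei, 12 of 14 were higher and 2 lower (1.98), beside 23.1% and 36.4%. Tbr1 had 452 CPM in CThPN and 279 in subcerebral-rule nuclei (log2 ratio 0.75), Foxp2 316 and 187 (0.74), and Lmo3 286 and 89.8 (1.66). Foxp1, a forkhead factor of several layers, was the lower one against subcerebral-rule nuclei, at 169 and 386 CPM (-1.10).

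Genes of heparan sulfate synthesis were taken as a list because 2 of its enzymes belong to the rule. Among the other genes of this pathway, 4 reached 50 CPM, of which 2 were higher and 1 lower than in subcerebral-rule nuclei in every library, too few to set beside the share of all genes. Against callosal-rule nuclei, 2 of 7 were higher and 4 lower (median log2 ratio -0.61), beside 23.1% and 36.4% of all genes. Hs3st5, another 3-O-sulfotransferase, had 115 CPM in CThPN, 34.4 in subcerebral-rule nuclei (log2 ratio 1.73) and 21.3 in callosal-rule nuclei (2.56). The 6-O-sulfotransferases parted, since Hs6st1 was higher in CThPN than in subcerebral-rule and callosal-rule nuclei (0.81 and 1.45) and Hs6st2 lower (-0.42 and -1.12). Hs2st1, the 2-O-sulfotransferase, lay between 64.9 and 84.8 CPM in CThPN. Of 12 serotonin receptor genes other than Htr1f, only Htr2a was higher in CThPN than in subcerebral-rule nuclei in all 8 libraries, at 10.6 and 2.70 CPM (log2 ratio 1.69), and the other 11 had at most 2.23 CPM in the CThPN of any library.

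Of 24 axon guidance genes counted in this way, 9 were higher and 9 lower in CThPN than in subcerebral-rule nuclei in all 8 libraries (median log2 ratio 0.09), beside 15.4% and 11.7% of all genes. Against callosal-rule nuclei 8 of 31 were higher and 18 lower (-0.57), beside 23.1% and 36.4%, so the share that was higher lay near that of all genes. Unc5c and Sema6a, described next, had a mean just under 50 CPM and stand outside these counts. Unc5c, a netrin receptor of the repulsive response, was higher at 50.0 CPM against 16.2 and 15.8 (log2 ratios 1.61 and 1.70). The ephrin receptor gene Epha7 was higher at 228 CPM (1.31 and 1.63), the adhesion gene Chl1 at 1276 CPM (1.02 and 2.44) and Sema6a at 47.8 CPM (1.23 and 1.67). Robo2, a Slit receptor, was lower at 101 CPM against 271 and 834 (-1.25 and -3.05). Sema6d (-0.74 and -2.34) and Cntn2 (-0.69 and -1.09), the contactin of early axons, were lower as well. Epha5 was abundant in every class, at 1723 CPM in CThPN and 1921 in subcerebral-rule nuclei.

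Of the 10 genes of FLRT proteins, teneurins and latrophilins, adhesion families that bind one another, 1 was higher and 1 lower than in subcerebral-rule nuclei in every library, and 4 were higher and 3 lower than in callosal-rule nuclei. The first pair of counts lay near the 15.4% and 11.7% of all genes, and the second stood beside 23.1% and 36.4%. Tenm1 had 385 CPM in CThPN, 119.8 in subcerebral-rule and 38.1 in callosal-rule nuclei (log2 ratios 1.72 and 3.42), while Flrt3 was lower (-0.53 and -1.90). Of 8 glutamate receptor genes counted in this way, 5 were higher and 1 lower in CThPN than in subcerebral-rule nuclei in every library (median log2 ratio 0.52), beside 15.4% and 11.7% of all genes. The kainate receptor gene Grik3 had 135 CPM against 59.5, the metabotropic receptor gene Grm5 83.5 against 48.5 (0.79) and the AMPA receptor gene Gria3 323 against 194 (0.75). Gria2, the AMPA subunit that blocks calcium entry, was the lower one, at 2459 against 3420.0 CPM (-0.47) and 5225.5 CPM in callosal-rule nuclei. Against callosal-rule nuclei, 6 of 8 glutamate receptor genes were higher and 2 lower in every library (median log2 ratio 1.95), beside 23.1% and 36.4% of all genes.

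Whether MIA or the loss of microglia changed how many nuclei were CThPN was asked over libraries. As counted, CThPN were 6.03%, 8.04%, 11.6%, 5.59%, 8.67%, 5.59%, 13.01% and 5.32% of nuclei, and in 3 of the 4 groups replicate 1 held the larger share. After thinning to 1000 UMIs the shares were 2.51%, 2.54%, 3.59%, 2.42%, 3.80%, 2.74%, 4.19% and 2.62%. MIA libraries had 3.21% ± 0.83 and saline libraries 2.898% ± 0.61 (SD, n = 4 each; difference 0.31 percentage points, two-sided exact permutation test within genotype, p = 0.6667). The difference was 0.74 points within replicate 1 and -0.12 within replicate 2, so the direction differed between the replicate numbers, which also mark the software version. Csf1r-null libraries had 3.34% ± 0.78 and WT libraries 2.77% ± 0.55 (SD, n = 4 each; difference 0.57 points, exact permutation test, p = 0.2222), with 0.95 points within replicate 1 and 0.20 within replicate 2. Without both libraries that go against their labels, the MIA difference was 0.34 points and the genotype difference 0.55 points. The size of both moved with thinning, since the MIA difference was 1.80 points without thinning and 0.52 at 2000 UMIs, and the genotype difference 0.33 and 2.32. This design of 36 assignments cannot give a p below 0.05556. It moved labels between libraries without regard to litter, although poly(I:C) was given to dams.

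**Figure D3:**
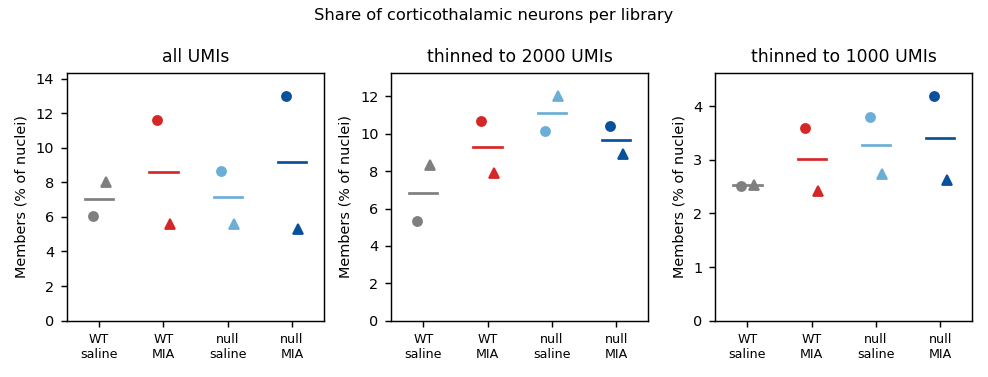
Corticothalamic neurons as a percent of the nuclei of each library, as counted and after thinning of every nucleus to 2000 or 1000 UMIs. Circles are replicate 1, triangles replicate 2 and lines group means; at 1000 UMIs the 8 libraries lie between 2.42% and 4.19%, and the MIA and saline libraries overlap.

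The makeup of the CThPN was compared in the same way. At least 1 UMI of a subplate gene (Nr4a2, Ctgf, also named Ccn2, Cplx3, Moxd1, Nxph4, Lpar1 or Tmem178) was found in 23.2% and 21.2% of the thinned CThPN of WT saline, 16.7% and 14.8% of WT MIA, 16.8% and 17.1% of Csf1r-null saline and 12.2% and 17.5% of Csf1r-null MIA. MIA libraries had 15.3% ± 2.4 and saline libraries 19.6% ± 3.1 (SD, n = 4 each; exact permutation test, p = 0.1667, adjusted p = 0.5001 over 3 shares, of which 2 are given here). The difference of -4.31 percentage points was -5.61 within replicate 1 and -3.01 within replicate 2. It was smaller at other depths, at -2.14 points without thinning and -1.38 at 2000 UMIs. Of these subplate genes, Nr4a2 and Nxph4 were more frequent in thinned CThPN than in subcerebral-rule and callosal-rule nuclei. Tmem178 was not, at 5.30% beside 6.76% and 7.95%. Lpar1 was found in 0.589% of CThPN, 6.16% of callosal-rule and 15.2% of progenitor nuclei. The share is thus not made by subplate-specific genes alone. The share of CThPN with Foxp2 differed by 0.97 points between MIA and saline (exact permutation test, p = 0.4444, adjusted p = 0.6666). Without both libraries that go against their labels, the differences were -3.78 points for subplate genes and 3.19 for Foxp2. As above, this design could not give a p under 0.05 for either share.

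For expression, the UMIs of the CThPN were summed per library and all 4 groups were fitted in 1 model with edgeR's quasi-likelihood test and Benjamini-Hochberg adjustment over 10318 genes. MIA against saline in WT CThPN called 0 genes (0.0%), with 393 genes at an unadjusted p under 0.05. DESeq2 called 2 (0.0194%), Npy and Gm42418. With the replicate number as a block, 731 genes had an unadjusted p under 0.05 and edgeR called 3 (0.0291%), Npy, Gm42418 and AY036118, all lower after MIA. Without both libraries that go against their labels, 1 gene was called, the embryonic globin gene Hbb-y, higher after MIA, and none of these 3. That fit left 1 library each in WT MIA and Csf1r-null saline, which were assumed to vary like the other groups. Hbb-y had 73.9 CPM in WT MIA 1, the library with the most erythroid RNA in its CThPN, and 0.0 to 3.69 CPM in the other 7 libraries.

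Npy (chromosome 6, 49822710 to 49829507), which encodes neuropeptide Y, had 191 and 121 CPM in WT saline CThPN, 65.2 and 24.5 in WT MIA, 22.2 and 36.8 in Csf1r-null saline and 30.2 and 34.2 in Csf1r-null MIA. Both WT saline libraries lay above the other 6. The log2 fold change in WT was -1.73 ± 0.36 (SE), with a Benjamini-Hochberg adjusted p of 0.9992 in edgeR, 0.007261 with the replicate block and 0.04503 in DESeq2. It was -1.54 within replicate 1, -2.26 within replicate 2 and -1.31 without both libraries in doubt. Npy was found in 20.5% and 10.4% of the CThPN of WT saline and in 3.70% to 10.8% in the other libraries, and 1 nucleus held at most 24.1% of a library's Npy UMIs. In subcerebral-rule nuclei both WT saline libraries were again the highest, with 90.6 and 51.9 CPM beside 12.3 to 41.0 elsewhere. The other classes did not show this, since the highest library was Csf1r-null saline 2 in callosal-rule nuclei (18.6 CPM, beside 17.2 and 6.99 in WT saline) and in progenitor nuclei (18.0 beside 13.8 and 6.26), and WT MIA 1 in interneuron nuclei (504 beside 177 and 399).

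Npy is also a gene of interneurons. It belongs to a list of 10 interneuron genes, whose summed level in CThPN was 221 and 125 CPM in WT saline and 30.4 to 73.9 CPM in the other groups. Without Npy, the other 9 genes had 29.7 CPM in WT saline 1, the highest of all libraries, 3.69 CPM in WT saline 2 and 3.02 to 17.7 CPM in the rest. In WT saline 1, 9 of the 10 genes had a UMI in CThPN and Prox1 was at 0, and in WT saline 2, 4 did. Gad1 and Gad2 were at 0 in all CThPN by the rule. The part of interneuron RNA in this result was not tested.

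Gm42418 and AY036118 lie over ribosomal RNA sequence, so that their counts may hold reads of ribosomal RNA. Gm42418 had 7334 and 6546 CPM in WT saline CThPN, 4553 and 3480.5 in WT MIA, 4581 and 3730 in Csf1r-null saline and 3778 and 3631 in Csf1r-null MIA. The log2 fold change in WT was -0.82 ± 0.16, with an edgeR adjusted p of 0.9992 and 0.01616 with the block. Both WT saline libraries were also the highest in subcerebral-rule, callosal-rule, interneuron and progenitor nuclei, and over all nuclei they had 6086.5 and 5268.5 CPM, where the other libraries had 2977 to 3878. AY036118 had 2145.5, 885, 1022, 548, 1347, 501, 783 and 380 CPM in CThPN. It was lower in replicate 2 than in replicate 1 of each group, and the replicate number also marks the software version.

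**Figure D4:**
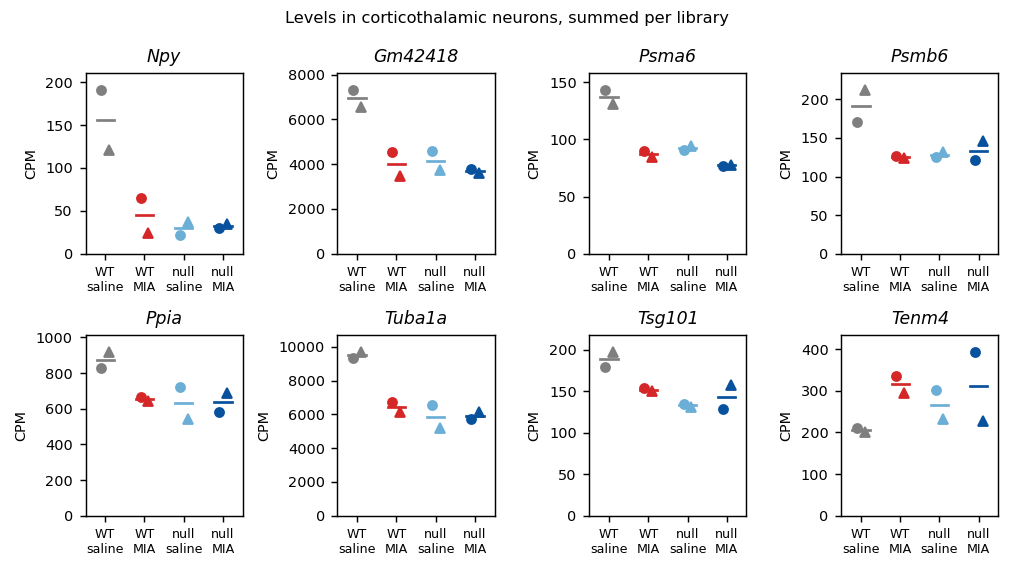
CPM of 8 genes in the summed corticothalamic neurons of each library. Circles are replicate 1, triangles replicate 2 and lines group means. In every gene but Tenm4 both wild-type saline libraries lie above the other 6, and in Tenm4 both lie below. They lay above for 6.88% and below for 4.0% of all genes tested. The 8 genes were picked by small p or were named by the study on these samples, so the pattern is no independent evidence. The edgeR fit called none of them.

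The other genes with the smallest p in WT were Taf3, a subunit of the basal transcription factor TFIID, Tuba1a, the alpha-tubulin of young neurons, and the proteasome subunit gene Psma6. Tuba1a had 9330 and 9717 CPM in WT saline and 5169 to 6752 in the other 6 libraries (log2 fold change -0.60 ± 0.15). This was not particular to CThPN, since over all nuclei it had 7832 and 7975 CPM in WT saline and 4343 to 5717 elsewhere. Both WT saline libraries were also its highest in subcerebral-rule, callosal-rule, interneuron and progenitor nuclei. Taf3 had 23.9 and 19.9 CPM in WT saline and 42.6 and 42.1 in WT MIA (0.92 ± 0.23). Neither was called under the block.

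Proteasome subunit genes were fixed as a list because the study names 2 of them for CThPN. The study reported lower expression of several such subunits after MIA in WT, on these same samples. The direction and counts of this list below are therefore no independent evidence. Psma6 (chromosome 12, 55384222 to 55418454) had 143 and 131 CPM in WT saline, 89.7 and 84.2 in WT MIA, 91.1 and 93.8 in Csf1r-null saline and 77.1 and 77.9 in Csf1r-null MIA. The log2 fold change was -0.69 ± 0.18 in WT and -0.24 ± 0.18 in Csf1r-null, with an edgeR adjusted p of 0.9992 in WT. Psmb6 (chromosome 11, 70525367 to 70527858) had 171 and 212 CPM in WT saline and 121 to 146 in the other 6 libraries, with log2 fold changes of -0.65 ± 0.21 and 0.07 ± 0.21. Both WT saline libraries were above the rest for each of the pair.

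All 31 proteasome genes of the list could be tested. None was called, 30 had a negative and 1 a positive log2 fold change in WT, and 11 had an unadjusted p under 0.05 (35.5%), where 49.6% of all genes were negative and 3.81% had such a p. Their median was -0.36 in WT, beside 0.00 over all 10318 genes, and -0.01 in Csf1r-null CThPN, where 15 were positive and 16 negative. Without both libraries in doubt, 30 of the 31 were again negative in WT (median -0.37), with 2 at an unadjusted p under 0.05 (6.45%, beside 1.73% of all genes), while in Csf1r-null 22 were positive and 9 negative (median 0.07). Their summed level was 4425 and 4952 CPM in WT saline, 3785 and 3595 in WT MIA, 3638 and 3765 in Csf1r-null saline and 3414 and 4015 in Csf1r-null MIA. In 19 of the 31 genes both WT saline libraries lay above the other 6, as they did for 6.88% of all genes tested. The mean of WT saline, 4688 ± 372 CPM (SD, n = 2), thus stood above WT MIA (3690 ± 134), Csf1r-null saline (3701 ± 90.2) and Csf1r-null MIA (3715 ± 425). Among all genes tested, both WT saline libraries lay below the other 6 for 4.0%, both WT MIA libraries above for 2.06% and below for 1.01%, both Csf1r-null saline libraries above for 2.4% and below for 2.44%, and both Csf1r-null MIA libraries above for 1.74% and below for 2.19%.

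**Figure D5:**
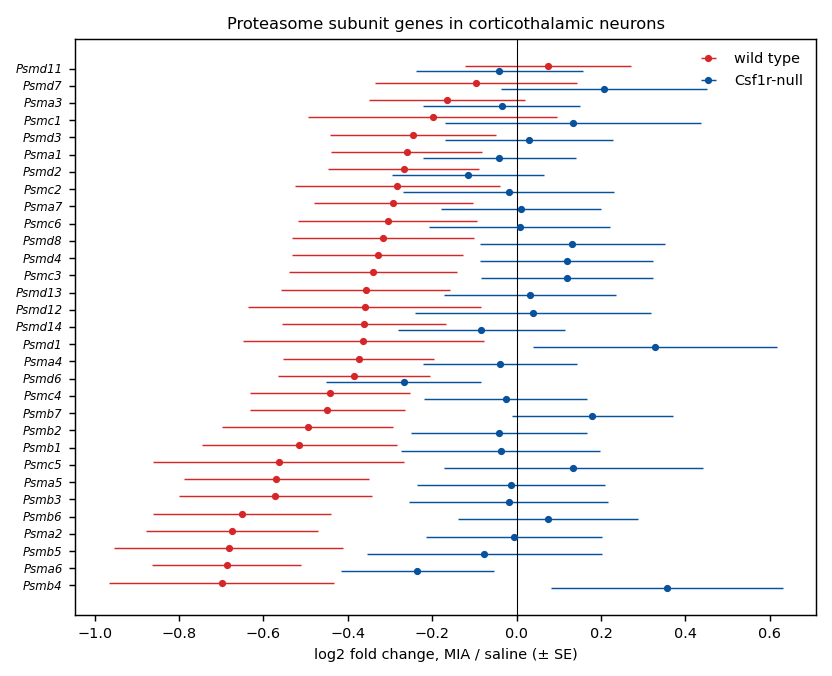
Log2 fold change of MIA against saline (± SE, edgeR) for 31 proteasome subunit genes in wild-type and Csf1r-null corticothalamic neurons. In wild type 30 of 31 lie below 0, with a median of -0.36, and in Csf1r-null 16 of 31 do, with a median of -0.01; none passed the adjusted threshold.

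The proteasome genes were also compared with other nuclei. When the MIA response of CThPN was set against that of subcerebral-rule nuclei, the median difference over the 31 genes was 0.01, with 19 positive and 12 negative, and against callosal-rule nuclei it was 0.06, with 24 positive and 7 negative. None was called in either comparison. Psma6 over all nuclei had 157 and 181 CPM in WT saline and 78.5 to 116 in the other 6 libraries. The difference between genotypes in the response had a median of 0.42 over the 31 genes, positive in 30, and none was called, and it was 0.47 without both libraries in doubt.

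The study also names Tenm4, Tsg101 and Ppia for CThPN, and since it chose them on these samples, their values are no independent evidence. Tenm4 (chromosome 7, 96171246 to 96911093), a teneurin that acts in cell adhesion, had 210.3 and 199.95 CPM in WT saline, 335 and 296 in WT MIA, 301 and 231 in Csf1r-null saline and 394 and 228 in Csf1r-null MIA. The WT groups did not overlap, and the Csf1r-null groups did (log2 fold changes 0.59 ± 0.23 and 0.24 ± 0.23). The share of all genes whose WT groups do not overlap was not counted. Over all nuclei Tenm4 had 165 and 172 CPM in WT saline and 211 to 344 in the other libraries. Tsg101 (chromosome 7, 46888949 to 46919969), a subunit of the ESCRT complex that sorts proteins to the lysosome, had log2 fold changes of -0.35 ± 0.19 in WT and 0.12 ± 0.20 in Csf1r-null. Ppia (chromosome 11, 6415443 to 6419817), the prolyl isomerase cyclophilin A, had -0.45 ± 0.19 and 0.04 ± 0.19. Over all nuclei Ppia had 1141 and 1256 CPM in WT saline and 719 to 974 in the other libraries. None of the 5 genes was called in either genotype, and the interaction's unadjusted p lay between 0.03329 (Psmb6) and 0.3015 (Tenm4).

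In Csf1r-null CThPN, MIA against saline called 0 of 10318 genes (0.0%) by edgeR, 0 with the replicate block and 0 by DESeq2, with 103 at an unadjusted p under 0.05 by edgeR and 269 with the block. The genes of smallest p were Oscp1, Rcor2, a corepressor partner of LSD1, Fam162a, Mmaa and the cullin gene Cul9. Rcor2 had 68.0 and 56.9 CPM in saline and 92.6 and 92.0 in MIA (log2 fold change 0.57 ± 0.19), while in WT the groups overlapped at 70.9 and 66.4 against 83.2 and 68.6. Fam162a, a mitochondrial gene that responds to hypoxia, had 35.4 and 34.6 CPM in saline and 20.8 and 15.3 in MIA (-0.89 ± 0.31).

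The difference between genotypes in the MIA response called 0 genes (0.0%) by edgeR, 0 with the block and 0 by DESeq2, with 215 at an unadjusted p under 0.05 by edgeR and 461 with the block. Ndufs8, a subunit of mitochondrial complex I, had the smallest p, with 50.3 and 66.4 CPM in WT saline, 38.7 and 33.3 in WT MIA, 35.4 and 22.3 in Csf1r-null saline and 43.1 and 46.0 in Csf1r-null MIA (interaction 1.30 ± 0.36). Npy (1.92 ± 0.55), Ptpn9 (-0.97 ± 0.31), Gm42418 (0.68 ± 0.22) and the splicing gene Snrpa (0.75 ± 0.24) followed.

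Over both genotypes, MIA against saline called 0 genes (0.0%) by edgeR and 0 by DESeq2, with 220 at an unadjusted p under 0.05 by edgeR. With the block, 526 had such a p and edgeR called 1 gene (0.00969%), AY036118 (log2 fold change -0.75, adjusted p = 0.00572). Fam162a (-0.85 ± 0.21), Mmgt1 (-0.78 ± 0.20), Psma6 (-0.46 ± 0.13) and the endoplasmic reticulum chaperone gene Dnajc3 (-0.70 ± 0.19) had the smallest p beside Gm42418. Dnajc3 had 33.8, 25.1, 33.5 and 25.7 CPM in the saline libraries and 16.1, 16.6, 21.2 and 20.1 in the MIA libraries, with no overlap. Mmgt1, a subunit of the membrane insertion complex EMC, had 25.7 to 27.3 CPM in the saline libraries and 14.4 to 16.6 in the MIA libraries, also with no overlap. Dnajc3 and Mmgt1 were picked by their small p, so the lack of overlap adds nothing to it.

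Csf1r-null against WT CThPN over both treatments called 0 genes (0.0%) by edgeR, with 274 at an unadjusted p under 0.05, and 1 by DESeq2 (0.00969%), Npy. With the block, 618 had such a p and edgeR called 5 (0.0485%), Npy, Hba-a1, Hba-a2, AY036118 and Gm10076. Npy had a log2 fold change of -1.51 ± 0.28 (adjusted p = 0.9996 in edgeR, 0.001159 with the block and 0.006861 in DESeq2), -2.07 within replicate 1, -0.61 within replicate 2 and -1.92 without both libraries in doubt. Without these libraries no gene was called for genotype, for MIA in Csf1r-null CThPN or over both genotypes, or for the difference between genotypes. Gm10076 had 12.4 to 32.6 CPM in replicate 1 libraries and 31.3 to 390.4 in replicate 2 libraries, and the replicate number also marks the software version. Zfp9 (0.88 ± 0.20), the pentose phosphate gene Taldo1 (-0.58 ± 0.14) and the potassium channel gene Kcnt2 (0.57 ± 0.14) had the next smallest p. Kcnt2 had 34.6, 36.9, 42.6 and 44.1 CPM in WT and 55.7, 54.7, 64.6 and 57.8 in Csf1r-null CThPN, with no overlap, though it was picked by its small p.

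The globin genes Hba-a1 and Hba-a2 are made by red blood cells. In WT MIA 1, 405 of 475 Hba-a1 UMIs in CThPN (85.3%) were in 1 nucleus, and the level fell from 153 CPM with that nucleus to 22.5 CPM without it, within the 10.9 to 35.1 CPM that the other libraries had without their own highest nucleus. A list of 7 erythroid genes had 57.4 to 410.4 CPM in CThPN, highest in WT MIA 1, where it also exceeded the 321 CPM over all nuclei, with Hbb-bh1 at 0 in every library. In WT saline this list had 164 and 198 CPM, in WT MIA 410.4 and 158, in Csf1r-null saline 117 and 87.1, and in Csf1r-null MIA 57.4 and 138.

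The MIA response of CThPN, averaged over genotypes, was also set against that of 2 other classes of nuclei in the same libraries, with the library as a block. Against subcerebral-rule nuclei, edgeR called 0 of 11000 genes (0.0%), with 493 at an unadjusted p under 0.05, and DESeq2 called 0. Against callosal-rule nuclei it called 0 of 12852 (0.0%), with 602 at an unadjusted p under 0.05, and DESeq2 called 0. Without both libraries that go against their labels, 2 genes were called against subcerebral-rule nuclei, Hba-a1 and Hba-a2, and 15 against callosal-rule nuclei. Left-out libraries changed these counts, most of all without WT MIA 1. That fit left WT MIA 2, which went against its label, as the only WT MIA library.

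Robo2 came near the threshold against subcerebral-rule nuclei, with a difference in response of -0.62 ± 0.13 on the log2 scale (edgeR, adjusted p = 0.06452). In CThPN it had 115, 74.5, 107, 64.6, 136, 106, 124 and 80.2 CPM and in subcerebral-rule nuclei 229, 157, 288, 344, 291, 222, 412 and 227 CPM. The values in CThPN overlapped between MIA and saline, but within each replicate number they were lower after MIA in both genotypes. In subcerebral-rule nuclei they were higher after MIA within each replicate number, though by little in Csf1r-null replicate 2 (222 and 227 CPM). The difference was -0.95 and called without WT MIA 1, and -0.46 without both libraries in doubt. Cdh10 had a difference of -0.64 ± 0.14 (edgeR, adjusted p = 0.06793) and Rorb 0.40 ± 0.09 (edgeR, adjusted p = 0.1207). Without WT MIA 1 both were called, at -0.67 and 0.57. These calls, like that of Robo2, rest on WT MIA 2 alone for the WT MIA group. Without the filter on low counts Rorb and Robo2 were called. Rorb (chromosome 19, 18930605 to 19111196) had 573, 566, 822, 511, 831, 933, 661 and 1060.4 CPM in CThPN, where MIA and saline overlapped in both genotypes. Hba-a1 had a difference of 1.62 ± 0.34 (edgeR, adjusted p = 0.06452), with most of its UMIs in WT MIA 1 in the 1 nucleus named above. Against callosal-rule nuclei the smallest adjusted p belonged to Gm14964, 0.63 ± 0.12 (edgeR, adjusted p = 0.07155). It was called without the filter (0.67), without both libraries in doubt (0.58), and without WT saline 2 (0.70), WT MIA 1 (0.75), WT MIA 2 (0.55) or Csf1r-null MIA 2 (0.68) alone.

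Genes of corticothalamic identity outside the rule showed no call in any of these contrasts. With 1 library left out, Foxp2 was called against callosal-rule nuclei without WT MIA 1 (difference in response -0.52) and Nxph3 without WT MIA 2 (-0.78). Each of these fits left 1 WT MIA library, which for Foxp2 was the one that went against its label. No other gene of this list was called under any alternative. Of 17 corticothalamic genes outside the rule that could be tested, 12 were positive and 5 negative in WT (median log2 fold change 0.06) and likewise in Csf1r-null (median 0.06), beside 0.00 and 0.01 over all genes. Without both libraries in doubt, 13 of 18 were positive in WT and 12 of 18 in Csf1r-null (medians 0.13 and 0.13), and none was called. With all libraries, the lowest was -0.45 and the highest 0.37 in WT. Tbr1 had 428, 425, 498, 408, 408, 462, 469 and 521 CPM, and Foxp2 402, 238, 395, 230.1, 304, 313, 328 and 318 CPM. MIA and saline overlapped for both genes in WT, while in Csf1r-null both MIA libraries lay above both saline libraries for each. The share of all genes that part 2 libraries from 2 in this way was not counted, so nothing is concluded from it. The 5 rule genes, which set the members, had log2 fold changes between -0.03 and 0.11 in WT and between -0.16 and 0.05 in Csf1r-null.

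The remaining lists were likewise without a call when all 8 libraries were used with the filter on low counts. With 1 library left out, some of their genes were called for the response against other nuclei. Among them were Robo2 and Cntn2 against subcerebral-rule nuclei, and Adgrl3, a latrophilin gene, against callosal-rule nuclei, both without WT MIA 1. Hs3st5 was called against callosal-rule nuclei without WT MIA 2. The fits named here each left 1 WT MIA library. The 40 axon guidance genes tested had a median of 0.06 in WT and 0.01 in Csf1r-null, the 15 heparan sulfate genes 0.03 and -0.08, and the 13 glutamate receptor genes 0.05 and -0.08. The 10 genes of FLRT proteins, teneurins and latrophilins had a median of 0.17 in WT, with 8 positive, and -0.09 in Csf1r-null, with 3 positive. Over all 10318 genes, 5197 were positive in WT and 5314 in Csf1r-null. These 10 genes include Tenm4, which the study chose on these samples. Without both libraries in doubt, the medians in WT and Csf1r-null were 0.13 and -0.09 for axon guidance, 0.13 and 0.10 for heparan sulfate, 0.17 and -0.03 for glutamate receptors and 0.15 and -0.07 for FLRT proteins, teneurins and latrophilins, with no gene called. Their summed level was 1859 and 1518 CPM in WT saline, 2084 and 1983 in WT MIA, 2096.5 and 1957 in Csf1r-null saline and 2262 and 1694 in Csf1r-null MIA.

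Markers of other cells were summed in CThPN as well. A list of 12 microglial genes had 4.53 to 19.0 CPM in CThPN, beside 4.66 to 38.5 CPM over all nuclei, and was higher in CThPN than over all nuclei in WT MIA 2, Csf1r-null saline 1 and Csf1r-null MIA 2. In the CThPN of these libraries the list had 7, 25 and 10 UMIs. The 6 microglial genes of the label check, C1qa to Tyrobp, gave 0, 0 and 1 of them. Trem2 and Ctss were at 0 in the CThPN of every library. The 10 progenitor genes had 151 to 214 CPM in CThPN, beside 934 to 1753 CPM over all nuclei. A list of 4 thalamic genes had 3.54 to 15.6 CPM in CThPN and 36.6 to 71.1 over all nuclei. Of these, Gbx2 was at 0 in the CThPN of every library, and Lhx9 was found in all 8, at 1.61 to 8.50 CPM. A list of 6 striatal genes had 551 to 933 CPM in CThPN and 1471 to 3109 over all nuclei, most of it from Meis2 (477 to 858.5 CPM in CThPN). Drd1 was higher in CThPN, at 68.0 to 86.0 CPM, than over all nuclei, at 12.1 to 21.2 CPM. Ebf1 had 51.9 CPM in the CThPN of WT saline 1 and at most 3.35 in the other libraries, Drd2 was found in 5, and Isl1 and Zfp503 only in WT saline 1, whose CThPN held all 6 genes and whose nuclei had the highest level of the list. The part of striatal RNA in the values of WT saline 1 was not tested.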

How the data were processed

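Nuclei were isolated from frozen cortex, sorted by DNA dye and made into 10x 3′ libraries. The authors aligned the reads to mm10 and deposited UMI counts per gene and barcode with no normalization. The file headers name Cell Ranger 3.1.0 for replicate 1, whose files list all 6794880 barcodes and 31053 genes, and 6.0.1 for replicate 2, with called barcodes and 32285 genes, and 30406 shared genes were used. Barcodes under 500 UMIs or 200 genes were dropped. No doublet caller was run. As an alternative, CThPN above the 95th percentile of UMIs over all nuclei of their library were left out. This kept 2712 of the 3435 CThPN. The study's mixed model over nuclei, in which the sample was a random effect, was not run; sums per library, which the study also tested, were used instead. UMIs were summed per library and tested with edgeR 4.0.16 in R 4.3.3 (TMM, filterByExpr, Benjamini-Hochberg threshold 0.05), with DESeq2 1.42.0 as an alternative. CPM ratios used a pseudocount of 1 CPM. Python 3.11.15, numpy 2.4.6, scipy 1.17.1 and pandas 2.3.3 were used.

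CThPN sums with the same replicate number deviated together in all 6 pairs of groups (correlations 0.377 to 0.491, each alike for both numbers because a group has 2 libraries). No label states that equal numbers are paired, and the number also marks the software version, gene list and barcode filter. The main fits did not include the replicate number, so values of the replicate block stand beside results whose calls it changed. Members and gene lists were chosen with earlier results of these data known. Genes were named as the 5 rule genes, list genes of highest CPM, the 5 genes the study names, the 5 of smallest p per contrast at 20 CPM or more, and up to 10 of largest ratio each way at 50 CPM or more in either class. The class fit of the MIA response had library as a block. Expression fits were also run on simulated counts, drawn from the mean of each gene over all libraries. These held no difference between replicate numbers, so they do not show how the fits behave with the one seen here. Counts of each nucleus were thinned at random to 1000 UMIs for shares, and nuclei below that were left out (44 to 1476 per library). Gene positions are from GENCODE vM21. The other libraries of the series, of sorted microglia, were not used here, and the results of 1 gene are not reported here.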

Additional observations from a re-analysis of the deposited data

Results flagged for a closer look

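In groups of 4 libraries, 160 sets of values were examined for a library far from the others by Dixon's criterion, which chance alone meets in about 1 of 20, and 12 were. The share of CThPN after thinning was 3.59% in WT MIA 1, where the other WT libraries had 2.42% to 2.54%. Among CThPN, subplate genes were found in 12.2% in Csf1r-null MIA 1 (16.8% to 17.5% in the other Csf1r-null libraries). Foxp2 was found in 21.2% in WT saline 2 (26.8% to 27.6% in the other saline libraries) and in 20.0% in WT MIA 2 (28.1% to 29.2% in the other MIA libraries).

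Of single genes in CThPN, Gm42418 had 4581 CPM in Csf1r-null saline 1 (3631 to 3778 in the other Csf1r-null libraries) and Oscp1 27.4 CPM in WT MIA 1 (19.6 to 20.6 in the other WT libraries). Hba-a1 had 153.2 CPM in WT MIA 1, apart from both the other MIA libraries (12.1 to 32.3) and the other WT libraries (32.2 to 39.8), and 405 of its 475 UMIs there were in 1 nucleus. Among MIA libraries, Cul9 had 30.7 CPM in Csf1r-null MIA 2 (41.2 to 42.1 in the others), Cdh10 327.9 CPM in Csf1r-null MIA 2 (236 to 243) and Wipf3 15.7 CPM in WT MIA 2 (24.2 to 25.2). Hs3st3b1 had 98.9 CPM in WT MIA 2 (162 to 167.5 in the other MIA libraries), but it is a gene of the rule, which sets its level in part.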

How the results depend on the processing

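With no filter on low counts, edgeR called 13 genes for MIA in WT CThPN, 5 for the difference between genotypes, 6 for MIA over both genotypes, 7 for genotype, and 6 and 9 for the response against subcerebral-rule and callosal-rule nuclei, where 0 were called with the filter. With the replicate block it called 3 genes in WT, 1 for MIA over both genotypes and 5 for genotype, and the block changed no other count of calls. DESeq2 called 2 in WT and 1 for genotype. Without both libraries in doubt, 1, 2 and 15 genes were called in WT and against subcerebral-rule and callosal-rule nuclei. Leaving out 1 library at a time gave 0 to 1 calls in WT (1 without WT MIA 2) and 0 for the other contrasts within CThPN. Against subcerebral-rule nuclei it gave 0 to 12 calls (12 without WT MIA 1, 4 without WT saline 2, and 1 each without WT MIA 2, Csf1r-null saline 1 or Csf1r-null MIA 1), and against callosal-rule nuclei 0 to 78 (78 without WT MIA 1, 19 without WT MIA 2, 5 without WT saline 2 and 2 without Csf1r-null MIA 2). DESeq2 size factors in edgeR, a rule sum of 5 and leaving out the deepest CThPN gave 0 calls in every contrast in which they were run. Each fit with 1 library left out had a group of 1 library, and without WT MIA 1 this was WT MIA 2, which went against its label. The causes were not tested.

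Between MIA and saline, the share of CThPN differed by -0.12 percentage points within replicate 2 alone, an alternative added after the data were seen, and by -0.082 to 0.70 with 1 library left out (-0.082 without Csf1r-null MIA 1). With 1 library left out, the genotype difference was 0.18 to 0.97 points and the subplate difference -5.64 to -2.97, where this design could not give a p under 0.05. The Foxp2 difference was -1.05 to 2.99 with 1 library left out (-0.42 without WT saline 2, -1.05 without WT MIA 1). The paired value, the mean of the differences within each replicate number, was 0.31 points for the share of CThPN, as in the unpaired comparison.

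Of 44 pairs of a gene and a contrast, alternatives kept direction and side of the threshold in 650 values, passed it in 35 and turned the direction in 13, all of them uncalled values for MIA in Csf1r-null CThPN. Tenm4 was -0.15 to 0.53 with 1 library left out (-0.15 without Csf1r-null MIA 1) and -0.021 within replicate 2. Psmb6 was -0.12 to 0.27 with 1 library left out (-0.024 without Csf1r-null saline 1, -0.12 without Csf1r-null MIA 2), -0.12 without the deepest CThPN and -0.044 within replicate 1. Tsg101 was -0.085 to 0.33 (-0.085 without Csf1r-null MIA 2) and -0.071 within replicate 1. Ppia was -0.16 to 0.20 (-0.098 without Csf1r-null saline 2, -0.16 without Csf1r-null MIA 2), -0.099 without both libraries in doubt, -0.14 without the deepest CThPN and -0.31 within replicate 1. The CThPN of a library held as few as 858502 UMIs, and how far depth set the counts of calls was not tested.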
